A study of Mus musculus with 4 samples.

Results

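Counts of 10 chaperone and stress response genes were followed in mouse liver across 4 ages. The genes were taken by symbol from the 33924 gene symbols in the count files by a rule that names them, and were kept in 2 arms of 5. The cytosolic arm held Hsp90aa1, Hsp90ab1, Hspa8, Hsph1 and Dnajb1. The endoplasmic reticulum (ER) arm held Hspa5, Hsp90b1, Calr, Xbp1 and Atf4. All 10 genes had at least 1 count in every library.

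Liver RNA came from male C57BL6 mice (C57BL/6Rj in the study's methods) aged 3, 9, 15 or 21 months, with no further treatment or genotype. For each age, equal amounts of RNA from 24 mice, 4 at each of 6 times of day, were combined into 1 pool and sequenced as 1 library, so that differences between times of day were averaged out and differences between animals could not be seen. The libraries were enriched for RNA with a 5′ cap and read over 35 bp. With 1 library per age there was no replicate error, and every test below compares these 4 libraries and not the ages as populations.

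Cells guard the folding of their proteins with separate chaperone systems. In the cytosol, HSP70 and HSP90 proteins work with J-domain proteins and nucleotide exchange factors, and the heat shock factor HSF1 raises their genes when unfolded proteins accumulate. In the ER, the unfolded protein response uses the sensors IRE1, PERK and ATF6, which act through the transcription factors XBP1, ATF4 and cleaved ATF6 and raise the ER chaperones. Hepatocytes secrete most plasma proteins and carry a large ER folding load. An mRNA count cannot show the splicing of Xbp1 mRNA by IRE1 or the translational control of Atf4, through which both factors are mainly switched on.

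The 4 promoters in which a motif of these responses was found are shown here, because they hold the letters through which these responses are known to act. The sequences are from RefSeq on build GRCm38.p6, in which 7 of the 10 genes had an entry (9 windows). Each window runs 5′ to 3′ on the gene's strand, from 250 bases before the annotated start to the first 50 bases transcribed, and capitals mark the ER stress response element (ERSE: CCAAT and CCACG separated by 9 bases, on either strand) or, in Hsph1, the heat shock element. The windows lie at chr2:34771840-34772139 (+ strand) for Hspa5, chr10:86705395-86705694 (- strand) for Hsp90b1, chr8:84846882-84847181 (- strand) for Calr and chr5:149636287-149636586 (- strand) for the first of the 2 Hsph1 windows.
Hspa5: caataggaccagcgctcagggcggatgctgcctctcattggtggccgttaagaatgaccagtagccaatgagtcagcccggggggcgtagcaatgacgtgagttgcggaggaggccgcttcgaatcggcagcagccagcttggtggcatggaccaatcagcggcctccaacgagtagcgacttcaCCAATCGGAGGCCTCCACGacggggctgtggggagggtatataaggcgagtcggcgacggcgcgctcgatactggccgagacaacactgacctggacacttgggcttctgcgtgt
Hsp90b1: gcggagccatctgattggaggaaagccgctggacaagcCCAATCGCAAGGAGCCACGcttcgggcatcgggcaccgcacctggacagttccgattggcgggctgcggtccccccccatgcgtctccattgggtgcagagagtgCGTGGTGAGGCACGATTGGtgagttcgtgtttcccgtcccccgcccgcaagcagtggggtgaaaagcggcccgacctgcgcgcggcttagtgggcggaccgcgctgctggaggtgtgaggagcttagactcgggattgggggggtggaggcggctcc
Calr: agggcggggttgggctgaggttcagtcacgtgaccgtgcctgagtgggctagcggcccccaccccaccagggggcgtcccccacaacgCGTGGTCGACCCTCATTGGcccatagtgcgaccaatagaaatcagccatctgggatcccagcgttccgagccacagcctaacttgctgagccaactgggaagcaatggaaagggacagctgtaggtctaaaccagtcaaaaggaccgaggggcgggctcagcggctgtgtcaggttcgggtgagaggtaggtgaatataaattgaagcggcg
Hsph1: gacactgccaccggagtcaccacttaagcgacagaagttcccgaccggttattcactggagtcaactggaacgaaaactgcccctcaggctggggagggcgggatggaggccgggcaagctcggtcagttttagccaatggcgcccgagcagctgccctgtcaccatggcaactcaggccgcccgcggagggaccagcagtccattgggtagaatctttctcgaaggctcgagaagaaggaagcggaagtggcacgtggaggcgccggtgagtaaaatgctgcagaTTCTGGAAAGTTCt

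Counted from the first base transcribed as 1, with the base before it as -1, Hspa5 held 1 ERSE at -65 to -47 and Calr 1 at -162 to -144. Hsp90b1 held 2, at -212 to -194 and -107 to -89. The same element was found in 0.119% of the 32851 RefSeq promoter windows of this length. The Hsph1 window held a heat shock element within the transcribed part, at bases 37 to 49, a motif found in 0.603% of windows. Its shorter unit (GAANNTTC or TTCNNGAA on either strand, which overlaps the longer motif) also stood at -33 to -26 and occurs in 15.1% of windows. The windows of Dnajb1, Xbp1 and Atf4 held none of the letters searched, which also included the ERSE-II (0.0365% of windows), the UPR element TGACGTGG (0.676%) and the amino acid response element TGATGCAA (0.895%; TTGCATCA is its other strand). A match describes the letters in the window and not a bound site.

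Reads assigned to genes numbered 955934, 958586, 525772 and 735962 from the youngest to the oldest pool, so that 3 counts in a library correspond to between 3.13 and 5.71 CPM (counts scaled to the library total). The 10 genes together took between 0.251% and 0.33% of these counts. Hepatocyte markers were abundant in every library, with a summed level of 97100 to 106000 CPM over 10 of 10 counted genes. Summed markers of the other cell types ranged between libraries from 870 to 1180 CPM for Kupffer cells (11 of 11 genes counted in every library), from 383 to 656 CPM for stellate cells (9 of 10), from 1020 to 1050 CPM for sinusoidal endothelium (10 of 10), from 33.4 to 60.9 CPM for cholangiocytes (4 of 7, Epcam at 0), from 152 to 274 CPM for lymphocytes and plasma cells (3 of 12, Ms4a1 and Tnfrsf17 at 0) and from 1380 to 2360 CPM for red blood cells (5 of 5). Most of the lymphocyte and plasma cell sum came from Sdc1. It had 130, 141, 64 and 134 of the list's 145, 182, 100 and 202 counts at 3, 9, 15 and 21 months. The Kupffer, stellate and lymphocyte sums were lowest at 3 months, the age at which several members were highest, and their part in the results was not tested. In bulk liver, fewer cells of a type and less RNA per cell cannot be told apart.

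Levels were compared on the centered log-ratio scale (clr), the natural log of a gene's count over the geometric mean of the 8704 genes counted in all 4 libraries. A ratio between ages is the ratio of these levels, with an exact (Clopper-Pearson) 95% interval that covers counting error only. On this scale a ratio at 15 months is lower by 0.129 on the log2 scale than by total counts, and at the other ages by 0.0387 or less in either direction. Reference genes served as alternative scales. Atp5h, Gsk3b and Sirt2 are the core normalisation set of the study. Gapdh was left out of its set as too variable, and the study holds that Gapdh may not be ideal for normalisation in liver.

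**Figure D1:**
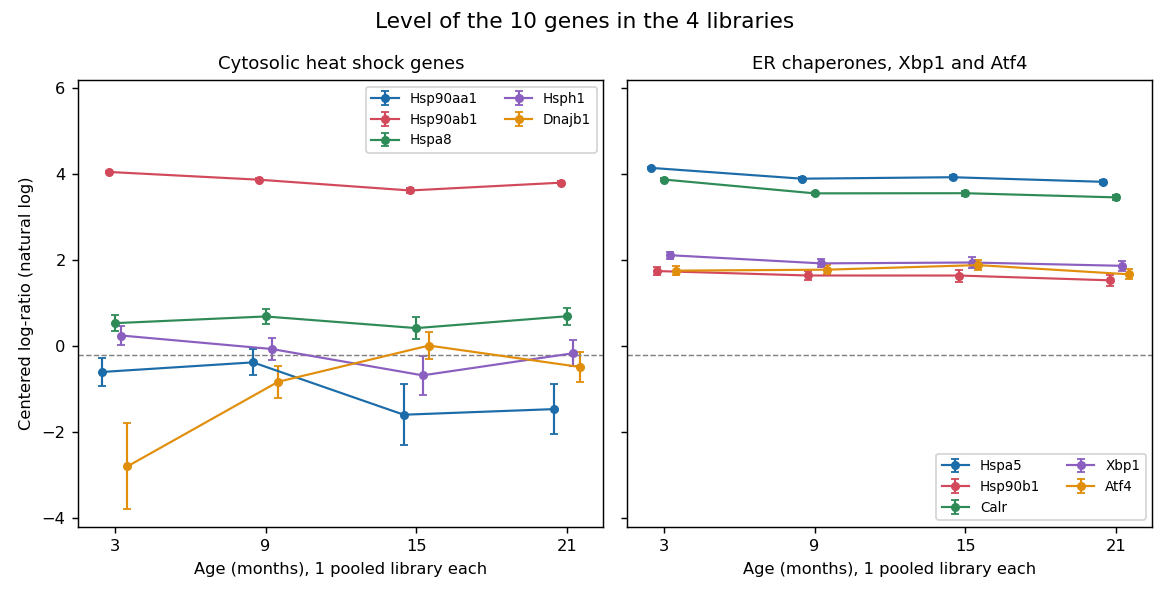
Level of each of the 10 genes (clr, natural log, vertical axis) against age in months (horizontal axis), with the cytosolic and ER arms in separate panels. Points are single libraries bars the standard error from counting alone, and the dashed line the median over all genes. Hspa5, Calr and Hsp90ab1 lie between 3.46 and 4.15 at every age, and Dnajb1 is lowest at 3 months (-2.80), where it had 1 count.

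Hspa5, Calr and Hsp90ab1 were the most abundant of the 10 genes. Per kilobase of exon, Hsp90ab1 averaged 274 CPM (234 to 329 over the libraries), Hspa5 averaged 261 CPM (229 to 309) and Calr averaged 228 CPM (195 to 287), and these ranges overlap. Atf4 followed with 60.3 (54.4 to 71.7), Xbp1 with 38.7 (35.1 to 43.8), Hsp90b1 with 22.5 (20.2 to 24.4) and Hspa8 with 7.61 (6.86 to 8.50), each range apart from the one above it. Dnajb1 (3.87, range 0.423 to 7.70), Hsph1 (2.20, range 1.35 to 3.12) and Hsp90aa1 (1.83, range 0.968 to 2.92) were lowest on average. Their ranges overlap, and that of Dnajb1 also overlaps that of Hspa8. The reads of a 5′-end library cluster near the start of a transcript, so that this scaling by length orders the genes only roughly. In CPM without it the order of Atf4 and Xbp1 was reversed. Xbp1 stood at 142, 115, 131 and 114 CPM and Atf4 at 99.4, 99.1, 124 and 93.8 CPM at 3, 9, 15 and 21 months.

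Across the 4 libraries, 4 of the 10 genes differed by the chi-square test on the counts (adjusted p under 0.05 over 8704 genes), which were Hsp90ab1 and Dnajb1 in the cytosol and Hspa5 and Calr in the ER. Among all genes tested 25.3% passed, and this share rose with depth, from 17.9% of genes with fewer than 100 counts in all to 86.6% of genes with at least 1000 (37.7% in the class between). Hspa5, Calr and Hsp90ab1 all belong to the deepest class, in which 290 of 335 genes passed, so their calls are what most genes of that depth gave. A linear trend with age across the libraries (edgeR quasi-likelihood test) was called for 0 of the 7 genes deep enough to enter the fit, and for 0 of 7 at an unadjusted p under 0.05, beside 6 of all 3599 genes tested (0.167%) and 211 at an unadjusted p under 0.05. DESeq2's Wald test called 0 genes, with 82 at an unadjusted p under 0.05.

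Hspa5 encodes BiP, the HSP70 of the ER lumen, which binds nascent chains and holds the UPR sensors inactive. It lies at chr2:34627490-34632051 on the + strand of build NCBIM37 (mm9) and is protein-coding. From the youngest to the oldest pool, 1037, 789, 502 and 593 reads were counted for it, which scale to 1080, 823, 955 and 806 CPM. The 3 month library was the highest on both scales. On the clr scale the level was 4.15 at 3 months and between 3.83 and 3.93 afterwards, and no interval between later ages excluded 1, whereas by total counts the 15 month level was 1.16 (1.04 to 1.3) of that at 9 months and the 21 month level 0.844 (0.748 to 0.952) of that at 15 months. Relative to 3 months, the ratio was 0.778 (interval 0.708 to 0.854) at 9 months, 0.805 (0.722 to 0.896) at 15 months and 0.723 (0.653 to 0.801) at 21 months. The four-library test gave an adjusted p of 2.34e-09 with the level lower in 3 of 3 later libraries, or in 1 of 3 with Gapdh as the scale (1.03 at 9 months and 1.51 at 15 months). With Atp5h, Gsk3b and Sirt2 as the scale, the 15 month ratio was 0.915 (0.821 to 1.02), an interval that includes 1. Without the 3 month library the adjusted p was 0.388.

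Calr encodes calreticulin, the lectin chaperone and calcium store of the ER (chr8:87365749-87370833, - strand). Its counts were 791, 561, 346 and 413 at 3, 9, 15 and 21 months, or 827, 585, 658 and 561 CPM. As for Hspa5, the 3 month library stood above the other three, among which no interval excluded 1 on the clr scale, while by total counts the 21 month level was 0.853 (0.737 to 0.987) of that at 15 months. The ratio to 3 months was 0.725 (0.650 to 0.809) at 9 months, 0.727 (0.639 to 0.826) at 15 months and 0.660 (0.585 to 0.745) at 21 months, and with Gapdh as the scale the 15 month value turned to 1.36. Calr was the only ER gene 1.5-fold lower at any age, and at 21 months it fell short of that fold with TMM or total counts as the scale (0.678 with either). The adjusted p of the four-library test was 4.57e-12, and 0.474 without the 3 month library. The estimated trend from 3 to 21 months was -0.48 ± 0.33 (SE, log2; adjusted p = 0.967 in edgeR), and -0.18 without the 3 month library (adjusted p = 0.998).

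Hsp90b1 encodes GRP94, the HSP90 of the ER (chr10:86152954-86168254, - strand). Its counts were 94, 83, 51 and 60 at the 4 ages. Its clr values went from 1.75 at 3 months to 1.65, 1.65 and 1.53, a spread no wider than counting gives (variance 0.00766 against 0.0147 from counting alone). The ratio to 3 months was 0.903 (0.664 to 1.23), 0.902 (0.629 to 1.28) and 0.807 (0.574 to 1.13) at 9, 15 and 21 months, and the four-library adjusted p was 0.732. Of its exonic bases, 15.7% are shared with the overlapping genes 1810014B01Rik, AC152453.1 and Gm15344, so that its count is uncertain.

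Xbp1 encodes the transcription factor that drives ER chaperone and degradation genes after its mRNA is spliced by IRE1 (chr11:5420662-5425896, + strand). Its counts were 136, 110, 69 and 84. The 3 month library was again the highest, at a clr of 2.12 against 1.87 to 1.95 later, but the intervals of all 3 ratios included 1: 0.827 (0.637 to 1.07), 0.844 (0.622 to 1.14) and 0.781 (0.588 to 1.03). The four-library adjusted p was 0.407.

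Atf4 encodes the transcription factor of the integrated stress response, which raises amino acid supply genes (chr15:80085614-80087970, + strand). Its counts were 95, 95, 65 and 69, and its highest clr was at 15 months (1.89) and its lowest at 21 months (1.67). The ratios to 3 months were 1.02 (0.761 to 1.37), 1.14 (0.817 to 1.58) and 0.918 (0.664 to 1.27), with an adjusted p of 0.756. Its trend estimate was 0.01 ± 0.44 (SE, log2), and moved to -0.20 without the 3 month library and to 0.44 without the 21 month library.

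All 5 ER genes had a ratio below 1 at 21 months, and 4 of 5 at 9 and at 15 months, with medians of 0.827, 0.844 and 0.781 at 9, 15 and 21 months. Below 1 lay 48.9%, 52.8% and 50.3% of all genes at these ages, with medians of 1.02, 0.964 and 0.994. From 9 to 21 months the ER genes ranged from 0.894 to 0.944 and no interval excluded 1 on this scale, although with Gapdh as the scale those of Hspa5 (0.886, 0.795 to 0.987) and Calr (0.868, 0.762 to 0.987) did. Among all genes 50.0% lay below 1 from 9 to 21 months and 9.17% had an interval below 1. These directions depend on the scale used: Gapdh itself stood at 0.756, 0.533 and 0.793 of its 3 month level at 9, 15 and 21 months, and relative to it only 2 of the 10 members lay below 1 at 9 and at 15 months. At 21 months Hsp90b1 (1.02) and Atf4 (1.16) lay above 1 relative to Gapdh, and Atf4 (1.06) relative to Atp5h, Gsk3b and Sirt2.

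**Figure D2:**
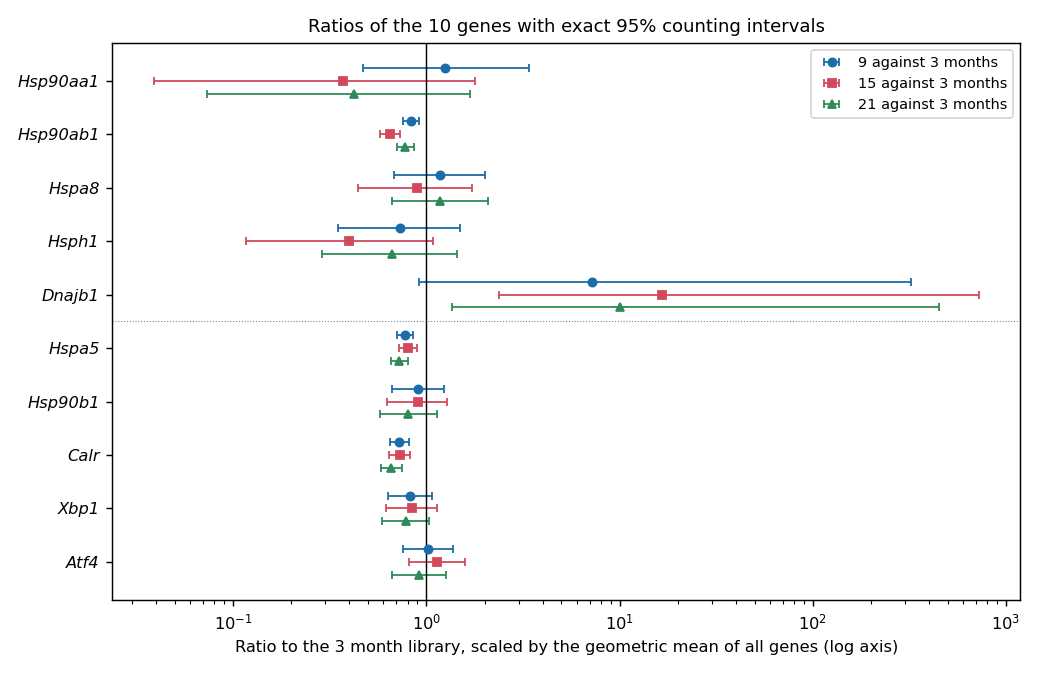
Ratio of the level at 9, 15 and 21 months to that at 3 months (log axis) for each of the 10 genes, with exact 95% intervals from counting. The intervals of Hspa5 and Calr lie below 1 at all 3 ages, whereas those of Hsp90b1, Xbp1 and Atf4 include 1. With Gapdh as the scale the ratios of Hspa5 at 9 and 15 months and of Calr at 15 months exceed 1, and with Atp5h, Gsk3b and Sirt2 the interval of Hspa5 at 15 months includes 1.

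The ER genes were next set against Hspa5 within each library, a measure that needs no scale between libraries. This pairing was chosen after the values had been seen. Calr stood at 76.3%, 71.1%, 68.9% and 69.6% of the Hspa5 count at 3, 9, 15 and 21 months. Xbp1 stood at 13.1%, 13.9%, 13.7% and 14.2%, and Hsp90b1 at 9.06%, 10.5%, 10.2% and 10.1%. For these 3 genes the change from 3 months relative to Hspa5 had an interval that included 1 at every age. Atf4 stood at 9.16% at 3 months and between 11.6% and 12.9% later, a change of 1.31 (0.963 to 1.79), 1.41 (0.996 to 2.0) and 1.27 (0.902 to 1.78), whose intervals also include 1. These intervals are wide, reaching 1.62 for Hsp90b1 and 1.46 for Xbp1 against 1.08 for Calr, so that a shift within them was not detectable at this depth.

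**Figure D3:**
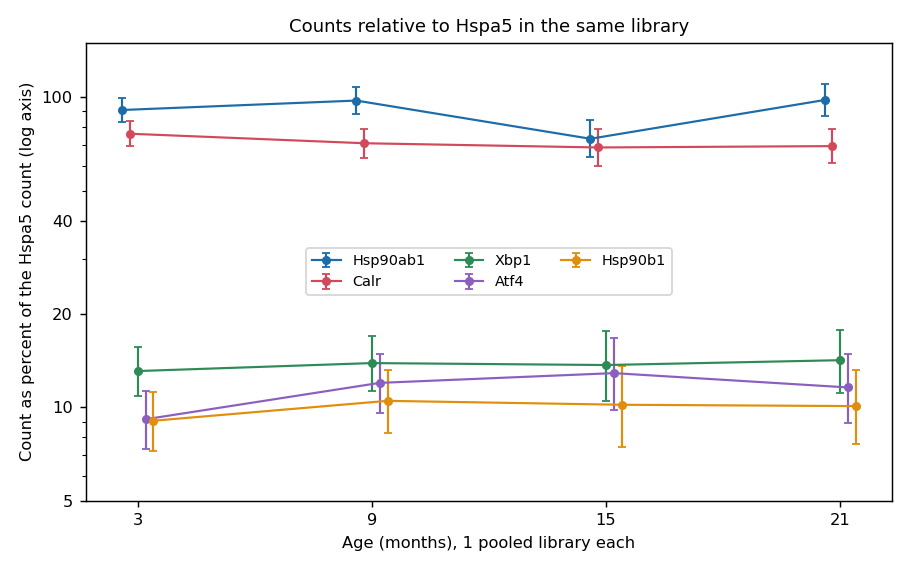
Count of Calr, Xbp1, Hsp90b1, Atf4 and Hsp90ab1 as a percentage of the Hspa5 count in the same library (log axis), at each of the 4 ages, with 95% intervals from counting as bars. Xbp1 stays between 13.1% and 14.2%, and Hsp90ab1 dips to 73.5% at 15 months between 97.6% and 98.0% at the neighbouring ages.

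Hsp90ab1 encodes HSP90β, the constitutive cytosolic HSP90 that matures kinases and steroid receptors (chr17:45704724-45710220, - strand). From the youngest to the oldest pool it had 944, 770, 369 and 581 counts, which scale to 988, 803, 702 and 789 CPM. The 3 month library was the highest and the 15 month library the lowest, except that with Gapdh as the scale the ratios to 3 months became 1.1 at 9 months and 1.22 at 15 months. The ratio to 3 months was 0.834 (0.757 to 0.918) at 9 months, 0.650 (0.575 to 0.734) at 15 months and 0.778 (0.701 to 0.864) at 21 months. Hsp90ab1 also differed among the later libraries: the 15 month level was 0.779 (0.686 to 0.883) of that at 9 months, where 8.94% of all genes had an interval below 1, and the 21 month level was 1.2 (1.05 to 1.37) of that at 15 months, where 8.7% had one above 1. By total counts the second of these was 1.12 (0.986 to 1.29), which includes 1. With Gapdh as the scale they became 1.11 (0.974 to 1.25) and 0.805 (0.705 to 0.919). Of the 335 genes with at least 1000 counts, 72.2% had a clr ratio below 1 from 9 to 15 months and 34.9% from 15 to 21 months. A low 15 month level was thus common at this depth. Relative to Hspa5, the 15 month level of Hsp90ab1 was 0.807 (0.685 to 0.951) of that at 3 months. The four-library adjusted p was 1.29e-10, and 0.00381 without the 3 month library.

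Among the 335 deeply counted genes Hsp90ab1 had one of the lower but not of the extreme ratios, since 20.9%, 13.1% and 16.1% of them had a lower ratio to 3 months at 9, 15 and 21 months. The corresponding shares were 14.6%, 39.1% and 11.3% for Hspa5 and 8.96%, 22.1% and 5.97% for Calr. A ratio below 1 was found in 48.7%, 69.3% and 54.6% of these deep genes at 9, 15 and 21 months, so that a lower level in the 15 month library was common among them.

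Hsp90aa1 encodes HSP90α, the stress-inducible partner of Hsp90ab1 (chr12:111928815-111940938, - strand). Only 9, 11, 2 and 3 counts were assigned to it at the 4 ages, or 0.953%, 1.43%, 0.542% and 0.516% of the Hsp90ab1 count. Its ratios to 3 months were 1.25 (0.471 to 3.41), 0.369 (0.0388 to 1.78) and 0.421 (0.0734 to 1.69), with an adjusted p of 0.302, and a change was not detectable at this depth. Of the 35-base windows along its transcripts, 73.0% occurred again elsewhere in the genome (up to 1 mismatch), and 1.52% of those in the first 100 bases. For Hsp90ab1 these shares were 41.7% and 1.33%.

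Hspa8 encodes HSC70, the constitutive cytosolic HSP70 (chr9:40609067-40613283, + strand). Its counts were 28, 32, 15 and 26 and its clr values 0.54, 0.69, 0.42 and 0.70. This spread was no wider than counting gives (variance 0.0178 against 0.0430 from counting alone). The ratios of 1.17 (0.682 to 2.01), 0.891 (0.442 to 1.73) and 1.17 (0.661 to 2.08) all had intervals including 1, with an adjusted p of 0.836. This gene had the largest share of windows with a match elsewhere, 78.5% over its transcripts and 25.4% within the first 100 bases. Of its exonic bases 6.3% are shared with the small nucleolar RNA genes Snord14c, Snord14d and Snord14e. This holds for 0 of the 367 bases that make up the first 100 of its coding transcripts, where the reads of a 5′-end library cluster. Between 72.2% and 76.7% of the reads in each library were left out as not unique. The part of this loss in the low counts of Hspa8 and Hsp90aa1, or in the counts of the other members, was not tested.

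**Figure D4:**
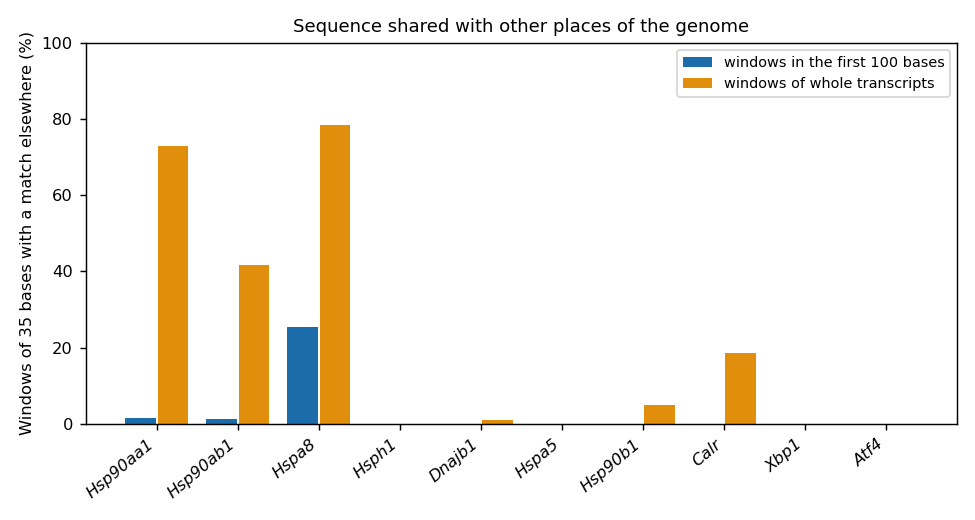
Percentage of 35-base windows that occur again elsewhere in the NCBIM37 genome (up to 1 mismatch), for the first 100 bases and for the whole transcripts of each gene. Hspa8 and Hsp90aa1 exceed 70% over their transcripts, and Hsp90ab1 (41.7%) and Calr (18.7%) follow, in contrast to 0% for Hspa5, Xbp1 and Atf4. In the first 100 bases Hspa8 stands at 25.4%, Hsp90aa1 at 1.52%, Hsp90ab1 at 1.33% and Calr at 0%.

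Hsph1 encodes HSP110, a nucleotide exchange factor for HSP70 (chr5:150416862-150438951, - strand). Its counts were 21, 15, 5 and 11, with the highest clr at 3 months (0.25) and the lowest at 15 months (-0.68). The ratios to 3 months were 0.730 (0.350 to 1.49), 0.396 (0.117 to 1.08) and 0.662 (0.288 to 1.44), each with an interval including 1, and the adjusted p was 0.391.

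Dnajb1 encodes an HSP40 that stimulates the ATPase of HSP70 and is itself a classical heat shock gene (chr8:86132074-86135801, + strand). Its counts were 1, 7, 10 and 8 at 3, 9, 15 and 21 months. On the clr scale Dnajb1 was the only member that was lowest at 3 months, and its variance of 1.52 exceeded that of 99.3% of all genes, against 0.342 from counting alone. The ratio to 3 months was 7.16 (0.920 to 323) at 9 months, 16.6 (2.37 to 722) at 15 months and 10.1 (1.36 to 449) at 21 months. The four-library adjusted p was 0.0275, the level being higher in 3 of 3 later libraries. This call rests on a single count at 3 months: the adjusted p was 0.421 without that library, 0.124 without the 15 month library and 0.062 when 1 was added to every count.

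Set side by side, 6, 8 and 8 of the 10 genes had a ratio below 1 at 9, 15 and 21 months relative to 3 months, and their medians were 0.869, 0.825 and 0.780. Their interval lay below 1 for Hsp90ab1, Hspa5 and Calr at each age, against 11.3%, 11.0% and 10.3% of all genes. It lay above 1 for 0, 1 and 1 gene (Dnajb1), against 9.66%, 8.73% and 9.38%. Intervals narrow with depth, and Hsp90ab1, Hspa5 and Calr belong to the deepest class, of which 86.6% passed the four-library test. The interval share within that class was not computed, so the shares of all genes do not mark these members as exceptional. With Atp5h, Gsk3b and Sirt2 as the scale, 3 rather than 4 members had an interval that excludes 1 at 15 months, Hspa5 being the one lost. Lower by 1.5-fold or more were 0, 3 and 3 of them, against 24.4%, 27.8% and 26.3% of all genes. Higher by 1.5-fold or more was Dnajb1 alone at each age, against 24.7%, 26.3% and 24.6%. Among the 335 deep genes the share lower by 1.5-fold was 5.97%, 14.6% and 7.16%, and 1 of the 3 deep members reached it at 15 months (Hsp90ab1) and 1 at 21 months (Calr). Hsp90ab1 at 15 months fell short of that fold with TMM (0.7), total counts (0.711) and Atp5h, Gsk3b and Sirt2 (0.739). On the clr scale the level was highest at 3 months for 6 of 10 genes (Hsp90ab1, Hsph1, Hspa5, Hsp90b1, Calr and Xbp1), compared with 26.4% of all genes and 37.0% of the deep genes. With Gapdh as the scale only Hsph1 of these 6 stayed highest at 3 months. Hsp90ab1 (1.22), Hspa5 (1.51), Hsp90b1 (1.69), Calr (1.36) and Xbp1 (1.58) then stood above it at 15 months.

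In its initial assessment, the study kept candidate genes with a high average clr and a low variance, each relative to the median. It took only genes with a minimum number of reads in a library. The 8704 genes used here were set without that minimum, and 6259 of them had fewer than 100 counts in all, so the medians are not those of the study. The medians here were -0.21 and 0.16. Of the 10 members 8 met both criteria, compared with 38.1% of all genes. Hsp90aa1 and Dnajb1 did not. A higher count raises the mean clr and lowers the part of the variance due to counting, so depth favours both criteria. The share among genes of like depth was not computed, and 8 of 10 does not mark the members as stable. Hspa5, Calr and Hsp90ab1 met both although they differed by the four-library test. Hsph1 lay just inside both limits, at a mean clr of -0.163 with variance 0.148. When at least 10 counts were required in every library, Hspa8 no longer met both, and 3 members had no value. The variances of Hsp90b1 (0.00766), Atf4 (0.00775), Xbp1 (0.0113) and Hspa8 (0.0178) were near or below the part due to counting, whereas those of Calr (0.0329), Hsp90ab1 (0.0318) and Hspa5 (0.0194) exceeded counting noise of 0.00148 to 0.00209. Without the 3 month library they were 0.00314, 0.0178 and 0.00294.

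**Figure D5:**
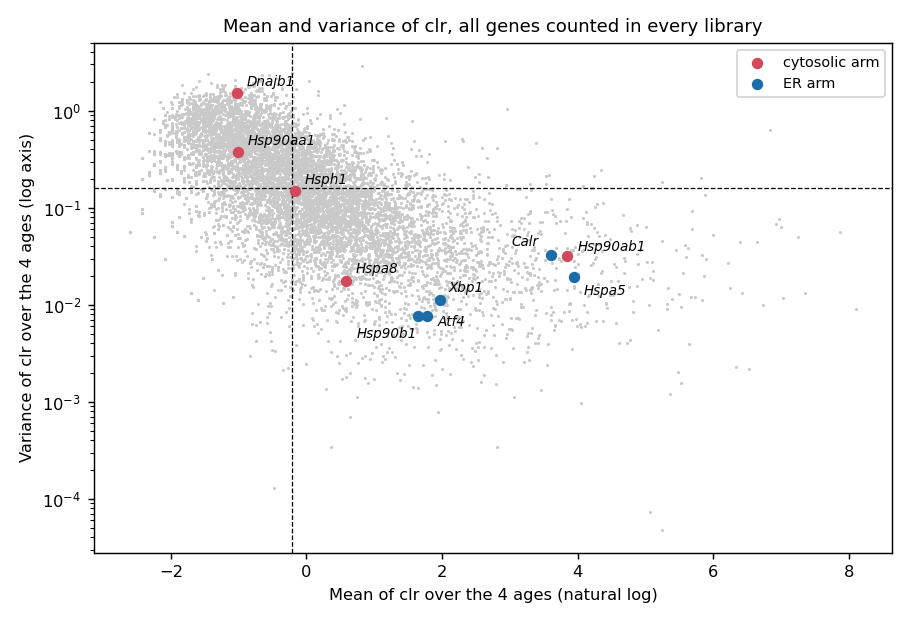
Variance of clr over the 4 ages (log axis) against mean clr for the 8704 genes counted in every library (grey), with the 10 genes in colour and the medians of all genes as dashed lines. Dnajb1 and Hsp90aa1 lie in the upper left quadrant and the other 8 genes in the lower right.

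The mean clr of the cytosolic arm was 0.29, 0.66, 0.36 and 0.48 at 3, 9, 15 and 21 months, and that of the ER arm 2.73, 2.56, 2.60 and 2.47. The difference (cytosolic minus ER) was -2.44 ± 0.22, -1.90 ± 0.12, -2.24 ± 0.19 and -1.99 ± 0.16 (counting SE), so that the ER arm was higher in every library and no order with age appeared. The wider gap at 3 months moved with the single count of Dnajb1, for without this gene the differences were -1.67, -1.53, -2.15 and -1.75.

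Related genes were examined in lists drawn from the pathways, and no gene of any list was called by the age trend. The counts of genes that differed by the four-library test stand beside 25.3% of all genes, 17.9% of those under 100 counts and 37.7% of those from 100 to under 1000, and the lists were not tested against other genes. Of 39 other cytosolic heat shock genes, 33 were counted in every library, 13 entered the trend test and 11 differed by the four-library test, with median ratios to 3 months of 0.886, 0.970 and 0.843 at 9, 15 and 21 months. The inducible Hspa1a and the testis form Hspa1l were at 0 in every library. Hspa1b, the other inducible HSP70 gene, had 11, 24, 8 and 9 counts. The part of reads left out as not unique in the 0 of Hspa1a was not tested. Dnaja1, an HSP40, had 5, 15, 8 and 31 counts (adjusted p = 1.81e-05), with the highest level at 21 months, whereas Fkbp5, a co-chaperone of HSP90 at steroid receptors, had 37, 15, 12 and 7 (adjusted p = 0.00249), with the highest at 3 months. Sugt1, another HSP90 partner, had 3, 22, 2 and 1 (adjusted p = 5.9e-06) and was highest in the 9 month library.

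The cytosolic chaperonin TRiC, which folds actin and tubulin, had 8 subunit genes counted in every library, of which 3 differed. Its median ratio to 3 months was 0.894, 0.839 and 0.735, and 6 of 8 genes lay below 1 at 21 months, against 50.3% of all genes. Cct3 had 145, 87, 57 and 67 counts (adjusted p = 0.00112), with ratios of 0.614, 0.654 and 0.584. Cct5 had 84, 55, 27 and 46 (adjusted p = 0.0449) and Cct2 had 63, 81, 22 and 66 (adjusted p = 0.0129). The first 2 of these were highest at 3 months, but Cct2 was not.

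Of 10 mitochondrial chaperone genes, 9 were counted in every library and 4 differed, with median ratios of 1.06, 0.670 and 0.924. Hspd1, the HSP60 of the matrix, had 211, 138, 85 and 123 counts (adjusted p = 0.00308), and its partner Hspe1 had 145, 81, 43 and 76 (adjusted p = 9.15e-05). Both were highest at 3 months, with ratios of 0.669, 0.670 and 0.737 for Hspd1 and 0.571, 0.493 and 0.663 for Hspe1. Hspa9, the mitochondrial HSP70, had 176, 92, 63 and 148 counts (adjusted p = 1.95e-07) and at 21 months was back near the 3 month level, at a ratio of 1.06.

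Among 26 other ER chaperone and folding genes, 24 were counted in every library, 18 entered the trend test and 6 differed, with median ratios of 0.915, 0.996 and 0.820. Below 1 lay 14, 12 and 18 of the 24 at 9, 15 and 21 months, against 48.9%, 52.8% and 50.3% of all genes. Hspa13, an ER-associated HSP70, had 64, 37, 27 and 16 counts (adjusted p = 0.00145) and Sil1, the exchange factor of BiP, had 75, 37, 24 and 40 (adjusted p = 0.00976), both highest at 3 months. Pdia5, a disulfide isomerase, had 16, 27, 14 and 4 (adjusted p = 0.0208).

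Of 18 genes of ER-associated degradation, 17 were found in the files and 16 counted in every library, and only Ube2g2, a ubiquitin-conjugating enzyme, differed (11, 20, 6 and 2 counts, adjusted p = 0.0298). The list's median ratios were 1.16, 1.05 and 0.976. Of 15 UPR sensor and signalling genes, 12 were counted in every library and 2 differed, with median ratios of 1.23, 1.13 and 1.22. Atf6, the sensor that drives ERSE-bearing genes, had 105, 138, 71 and 132 counts (four-library adjusted p = 0.0157). Its ratios to 3 months were 1.34, 1.12 and 1.59, so that it was lowest at 3 months. An mRNA count does not show the cleavage of ATF6, and a link to the levels of Hspa5 and Calr was not tested. Ddit3, which encodes the stress factor CHOP, had 4, 22, 7 and 5 counts (adjusted p = 0.00504) and was highest at 9 months, at 5.62 times its 3 month level.

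Of 21 targets of ATF4, 9 were counted in every library and 4 differed, with Slc7a11, Vldlr and Stc2 at 0 throughout and median ratios of 1.12, 0.982 and 0.948. Eif4ebp1, a repressor of cap-dependent translation, had 641, 1113, 973 and 1054 counts (adjusted p = 2.24e-77) and was 1.78, 2.52 and 2.08 times its 3 month level, although its trend estimate of 1.19 (log2) was not called (adjusted p = 0.168 in edgeR). Cth, which makes cysteine, had 133, 240, 85 and 227 (adjusted p = 1.18e-13), and Shmt2, of mitochondrial serine use, had 235, 219, 84 and 179 (adjusted p = 0.00303). Eif4ebp1 was the only one of these 3 that was higher than at 3 months by 1.5-fold at all later ages.

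Immediate early genes, which respond within minutes of tissue handling, were listed as a sign of how the samples were taken. Of 16, 10 were counted in every library and 4 differed, with median ratios of 1.14, 1.21 and 1.0. Zfp36 had 62, 156, 55 and 66 counts (adjusted p = 1.67e-09), Ier2 had 33, 32, 7 and 7 (adjusted p = 0.0036) and Dusp1 had 2, 12, 7 and 16 (adjusted p = 0.0192). The summed level of the list was 309, 402, 361 and 333 CPM, lowest at 3 months and highest at 9 months, and its part in the results was not tested.

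The genes outside the set whose profile over the 4 libraries lay closest to the mean profile of each arm were sought among 497 genes with at least 100 counts in every library. For the ER arm these were Cyp4v3 (222, 199, 122 and 140 counts, a root mean square distance of 0.0293 in clr), U4atac (1105, 968, 584 and 725 counts, 0.0309) and Naca (590, 457, 283 and 352 counts, 0.0349). For the cytosolic arm they were Slc2a2 (354, 486, 239 and 355 counts, 0.0334), C1ra (0.0389) and Ctsl (0.0398). Relative to its own mean over the 4 libraries, the 3 month clr was -1.773 for Dnajb1 and -0.05 for Hspa8. It was 0.409 for Hsp90aa1, 0.216 for Hsp90ab1 and 0.413 for Hsph1. The mean profile of the cytosolic arm, -0.157 at 3 months, thus follows Dnajb1 with its single count there, and not most of the arm. With 4 points per profile the likeness of the named genes is a description only.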

How the data were processed

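Pooled liver RNA of 4 ages, enriched for 5′ caps, was sequenced on the SOLiD platform. According to the study's methods, the authors mapped the reads with the CLC Genomic workbench, and the submitters' notes name HTSeq and build mm9 (versions and counting settings not given in the sources used here, so strand use is unknown). The deposited files hold raw read counts per gene symbol. The last 5 rows of each file count unassigned reads and were left out. Reads on genes made up 6.67% to 8.42% of each file, reads not unique 72.2% to 76.7% and ambiguous reads 0.377% to 0.473%.

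The clr used the 8704 genes counted in every library. The four-library chi-square test (3 degrees of freedom) was adjusted over these genes by Benjamini-Hochberg. The trend was fitted with edgeR 4.0.16 (R 4.3.3) on TMM-scaled counts of 3599 genes, with 2 residual degrees of freedom, and DESeq2 1.42.0 was an alternative. Other steps used Python 3.11.15, numpy 2.4.6, pandas 2.3.3 and scipy 1.17.1. The fits were tested on simulated data. Intervals and floors (3 counts) cover counting error only, and p-values compare libraries.

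The members and lists were chosen with earlier results of these data known. Named were the 10 members, per pathway list the genes called by the trend and the 3 called genes with the smallest four-library p, and per arm the 3 nearest profiles. Gene positions and shared windows are from NCBIM37 with GENCODE M1, promoters from RefSeq on GRCm38.p6. Alternatives were other scales, count minimums, pseudocount, tools, members and left-out libraries.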

Additional observations from a re-analysis of the deposited data

How the results depend on the processing

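The 4 genes called by the four-library test became 7 with Gapdh as the scale, which added Hsp90b1 (adjusted p = 0.0338), Xbp1 (0.0238) and Atf4 (0.000143), and 1 to 4 when each library was left out in turn. Of all genes 2204 were called, against 3930 with the Gapdh scale, 1238 with at least 10 counts in every library and 1288 to 1636 without one library. The Gapdh scale turned the direction of Hsp90ab1 at 9 months (1.10) and 15 months (1.22), Hspa5 at 9 months (1.03) and 15 months (1.51) and Calr at 15 months (1.36). With it, 2 members lay below 1 at 9 months and 2 at 15 months, 3 and 6 were higher by 1.5-fold, 0 were lower by 1.5-fold at 15 months, and the interval excluded 1 for 7 at 15 months and 2 at 21 months. The members lower by 1.5-fold at 21 months were 1 with TMM, 1 with total counts, 1 with Atp5h, Gsk3b and Sirt2 and 1 with Gapdh. On each of these scales it was Hsp90aa1 (0.433, 0.433, 0.486 and 0.531), which had 3 counts at 21 months, and not Calr. With at least 10 counts in every library, which leaves Hsp90aa1 out, it was also 1 member. That minimum also left 1 lower at 15 months and 0 higher at 9, 15 and 21 months. A ratio on the Gapdh scale is the clr ratio divided by that of Gapdh, which was 0.756, 0.533 and 0.793 at 9, 15 and 21 months relative to 3 months. The cause of the other moves was not tested, except that a minimum leaves fewer genes.

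The trend called 0 members under every alternative, and of all genes 6, against 17 with log2 age, 0 with DESeq2 and 2 to 15 without one library. The difference between the arms became -0.76, -0.67, -0.95 and -0.66 at 3, 9, 15 and 21 months from summed counts, -2.97, -2.37, -2.69 and -2.46 without Xbp1 and Atf4, and -3.38, -2.71, -3.05 and -2.83 without Hsp90ab1. It was -1.67 at 3 and -1.53 at 9 months without Dnajb1, -1.64 at 9, -1.75 at 15 and -1.51 at 21 months without Hsp90aa1, -1.57 at 9 and -1.66 at 21 months without Hspa5, and -1.65 at 9 months without Calr. It stayed below 0 in all of these. The number of members meeting both clr criteria was 6 with at least 10 counts and up to 8 otherwise. No paired analysis was possible because each age had 1 library. Depth limits Hsp90aa1, Hsph1 and Dnajb1 most, each with under 100 counts in all.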
